A study of Mus musculus with 12 samples.

Results

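The histone genes of the mouse array are described here across 12 time points in the olfactory epithelium, the tissue of the nose that holds the odour-sensing neurons, together with supporting cells, basal cells and glands. Members were chosen by gene symbol alone, as all genes of the H1f, H2a, H2b, H3c, H3f, H4c and H4f series and of the older Hist series that had a probe with 1 symbol, leaving out the H2 genes of the major histocompatibility complex. The rule found 45 of the 19937 genes measured. Of these, 28 were classed as replication-dependent, 6 as variant and 11 as germline genes, by their current or older symbols. H2bc21 (older name Hist2h2be) is among the 28 by its symbol alone, and whether it depends on replication was not tested. The set was put forward with measured values of these arrays in view and with the linker histone gene H1f2 as its leading gene. The values of H1f2 are therefore given as a description with no test, and the counts over the other members in the 24 h course and in night against day are descriptions too.

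Histones package DNA: 2 copies each of H2A, H2B, H3 and H4 form the nucleosome core, and a linker histone, H1, binds where DNA enters and leaves it. Replication-dependent genes lie in clusters, are transcribed mainly in S phase and make messages that end in a stem-loop in place of a poly(A) tail, bound by the stem-loop binding protein Slbp. Variant genes, such as those of H2A.Z and H3.3, lie apart, make mostly polyadenylated messages and supply histones outside S phase as well. In the olfactory epithelium basal cells go on dividing in the adult, while mature sensory neurons, the most numerous cells, have left the cell cycle.

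Tissue came from male C57BL/6 mice that had lived under alternating 12 h light and 12 h dark for at least 14 days and were then kept in constant darkness. The bilateral epithelia were taken every 4 h from circadian time (CT) 12 to CT56, and RNA of 4 animals was pooled in equal amounts for 1 array per time point. The 12 pools give 6 phases of the day with 2 pools each, the first cycle being CT12 to CT32 and the second CT36 to CT56. CT12, CT16 and CT20 and the same phases of the second cycle are called subjective night here, and the other 6 pools subjective day. All animals were of 1 strain and 1 sex with no treatment, each pool mixes animals, and pools of 1 phase differ in their cycle. Values are log2 intensities, 1 probe per gene, and levels of different genes are not compared because probes differ in brightness. In whole tissue, fewer cells of a type and less RNA per cell cannot be told apart.

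The pools resembled each other, with mean pairwise correlations over genes of 0.98 to 0.99, lowest at CT56 (0.984). Array weights, which count pools that fit poorly less, were lowest at CT56 (0.332) and CT52 (0.469) and highest at CT24 (2.74) in the 24 h fit. All 12 mature sensory neuron markers lay above the 95th percentile of the mean level, with Omp between 12.70 and 13.08. Of 5 clock genes used to check the time labels, 3 passed an adjusted p of 0.05 in the 24 h fit (limma), and the output gene Dbp reached its fitted peak at CT 7.8 (amplitude 0.51 ± 0.05 SE, adjusted p = 0.00173, limma). Dim and bright genes did not move alike between pools. Dim genes, those whose mean level lay under the 25th percentile, stood at a median of 0.12 above their own means at CT36 and 0.09 above at CT52. Bright genes, those over the 75th percentile, stood at -0.12 and -0.07 in these pools. Of the 45 histone genes 13 were dim in this sense.

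H1f2 (older names Hist1h1c and H1.2) encodes one of the most widespread linker histones. In the first cycle its log2 intensity was 9.74 at CT12, 9.24 at CT16, 10.27 at CT20, 10.23 at CT24, 10.40 at CT28 and 10.42 at CT32. In the second cycle it was 9.58 at CT36, 9.41 at CT40, 10.25 at CT44, 10.25 at CT48, 10.70 at CT52 and 10.37 at CT56. The 4 pools of early and middle subjective night (phases CT12 and CT16) were the 4 lowest in both cycles, and none of them overlapped the other 8. The 4 pools had a mean of 9.49 ± 0.22 (SD, n = 4) and the other 8 a mean of 10.36 ± 0.16 (SD, n = 8), a 1.83-fold higher level in the latter. The gap between the highest of the 4 and the lowest of the 8 was 0.49. A fitted 24 h cosine peaked at CT 3.1, and its amplitude, the distance from mean to peak on the log2 scale, was 0.54 ± 0.09 (SE). Night minus day was -0.65, with -0.60 in the first cycle and -0.69 in the second. Between cycles the gene differed by 0.05. Over 26 alternative settings the amplitude lay between 0.48 and 0.59. The peak lay between CT 0.4 (period of 26 h) and CT 5.7 (period of 22 h). Night minus day lay between -0.75 and -0.47 over 23 alternatives. Some settings, such as the filters on dim genes, cannot change the estimate of this gene.

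**Figure D1:**
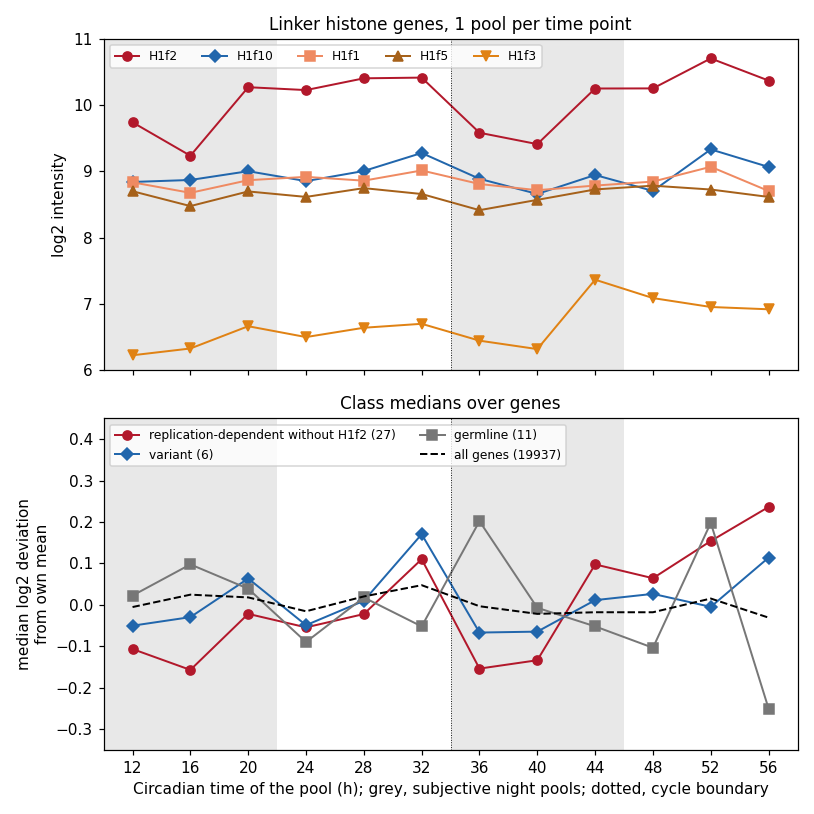
The upper panel plots the log2 intensity of 5 linker histone genes against circadian time, each point being 1 pool of 4 mice. H1f2 sits between 9.24 and 9.74 in the 4 pools of phases CT12 and CT16 and between 10.23 and 10.70 in the other 8. The lower panel plots the median deviation of each class from the genes' own means, where the replication-dependent genes without H1f2 go from -0.16 at CT16 to 0.24 at CT56.

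The other 3 replication-dependent linker genes varied less by phase or more by cycle. H1f3 (H1.3) was the one with the clearest difference between cycles: its values ran from 6.23 at CT12 to 6.70 at CT32 in the first cycle, with a median of 6.57, and from 6.32 at CT40 to 7.37 at CT44 in the second, with a median of 6.94. Its 4 pools of phases CT12 and CT16 were also below the other 8, by 0.52 on average, so H1f3 and H1f2 shared the position of their low pools. H1f1 (H1.1) read 8.68 to 8.87 at night (median 8.80) and 8.70 to 9.07 by day (median 8.89). H1f5 (H1.5) read 8.42 to 8.73 at night (median 8.63) and 8.62 to 8.79 by day (median 8.69). Night minus day was -0.24 ± 0.16 (SE) for H1f3, -0.12 ± 0.07 for H1f1 and -0.09 ± 0.07 for H1f5, and night and day pools overlapped for all 3. H1f4 was measured only through a probe shared with H2bc6, which read 8.57 at CT16 and 9.33 at CT32.

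The promoters of H1f2, H1f3 and H1f5 are shown because these genes are the linker genes just described that have a RefSeq promoter with the H1 box. Each run is the 150 bases before the RefSeq transcription start in GRCm38.p6, 5′ to 3′ on the gene's strand, with capitals marking matches on either strand to CCAAT (the CCAAT box), TATAAA (the TATA box), AAACACA (the H1 box), ATTTGCAT (the octamer of H2B promoters), CACGTG (E-box) or TTATGTAA (D-box). H1f2 is at chr13:23738657-23738806 on the plus strand, H1f3 at chr13:23554882-23555031 on the plus strand and H1f5 at chr13:21780626-21780775 on the minus strand.
H1f2: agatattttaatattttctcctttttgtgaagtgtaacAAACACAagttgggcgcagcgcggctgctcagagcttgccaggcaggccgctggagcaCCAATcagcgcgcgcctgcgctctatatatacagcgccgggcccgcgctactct
H1f3: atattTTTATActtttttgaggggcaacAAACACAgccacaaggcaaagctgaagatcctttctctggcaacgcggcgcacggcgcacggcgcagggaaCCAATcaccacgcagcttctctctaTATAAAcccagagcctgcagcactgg
H1f5: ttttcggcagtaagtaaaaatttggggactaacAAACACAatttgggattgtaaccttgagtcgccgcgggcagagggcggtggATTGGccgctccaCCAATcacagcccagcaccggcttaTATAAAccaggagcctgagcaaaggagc
All 3 hold AAACACA because they were chosen for it, and in each it lies upstream of CCAAT. H1f1 has a promoter too, but AAACACA was found in only 3 of the 4 replication-dependent linker promoters. H1f3 and H1f5 also hold TATAAA near the start, while in H1f2 these exact letters are not in the window. The search took exact letters only. H1f2 holds the run tatatata near its start, which is not a match, so a TATA box is not shown to be absent.

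Without H1f2, the 27 other replication-dependent genes all had a lower mean at night than by day, where 51.5% of all genes did (mean lower at night). Their median night minus day was -0.21 against 0.00 for all genes. Of the 27, 26 were lower after quantile normalization (median -0.15) and after cyclic loess (median -0.16), the exception being H2bc9 in both. With array weights 25 were lower and the median was -0.11. At an unadjusted p under 0.05, 12 of the 27 were lower at night, against 5.69% of all genes, and 0 were higher, against 4.17%. Of the 45 members 0 passed an adjusted p of 0.05 in night against day (limma), as was the case for 0.0% of all genes. In the first cycle alone 24 of 27 were lower at night (median -0.12) and in the second cycle 26 (median -0.24). Level has to be read beside these counts, since 80.0% of bright genes were lower at night and 25.2% of dim genes. The 6 dim replication-dependent genes were lower at night too, as were the other 21 of the 27. How far level accounts for the counts was not tested.

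The low pools of the class were those of H1f2. Median deviations of the 27 genes from their own means were -0.11 at CT12, -0.16 at CT16, -0.02 at CT20, -0.05 at CT24, -0.02 at CT28 and 0.11 at CT32. In the second cycle they were -0.15 at CT36, -0.13 at CT40, 0.10 at CT44, 0.06 at CT48, 0.15 at CT52 and 0.24 at CT56. CT52 and CT56, where the class was highest, were the pools with the lowest array weights. At CT12 24 of the 27 genes were below their own means, at CT16 24, at CT36 24 and at CT40 25. At CT44, the last night pool of the second cycle, 3 were. The split into phases CT12 and CT16 against the rest was chosen after the values of H1f2 were seen. Under it all 27 genes had a lower mean in the 4 pools (median -0.22), against 50.6% of all genes, and for 6 of the 27 all 4 pools lay below the other 8, against 0.918%. These 6, named after their values were seen, were H1f3, H2ac15, H2aw, H2bc18, H2bc8 and H4c3. The low pools were not particular to the class. All 6 variant genes also had a lower mean in the 4 pools (median -0.10), though for 0 of them did all 4 lie below the other 8. At CT36 and CT40 all 6 variant genes were below their own means. Of bright genes 75.4% had a lower mean in the 4 pools, and of dim genes 28.3%.

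**Figure D2:**
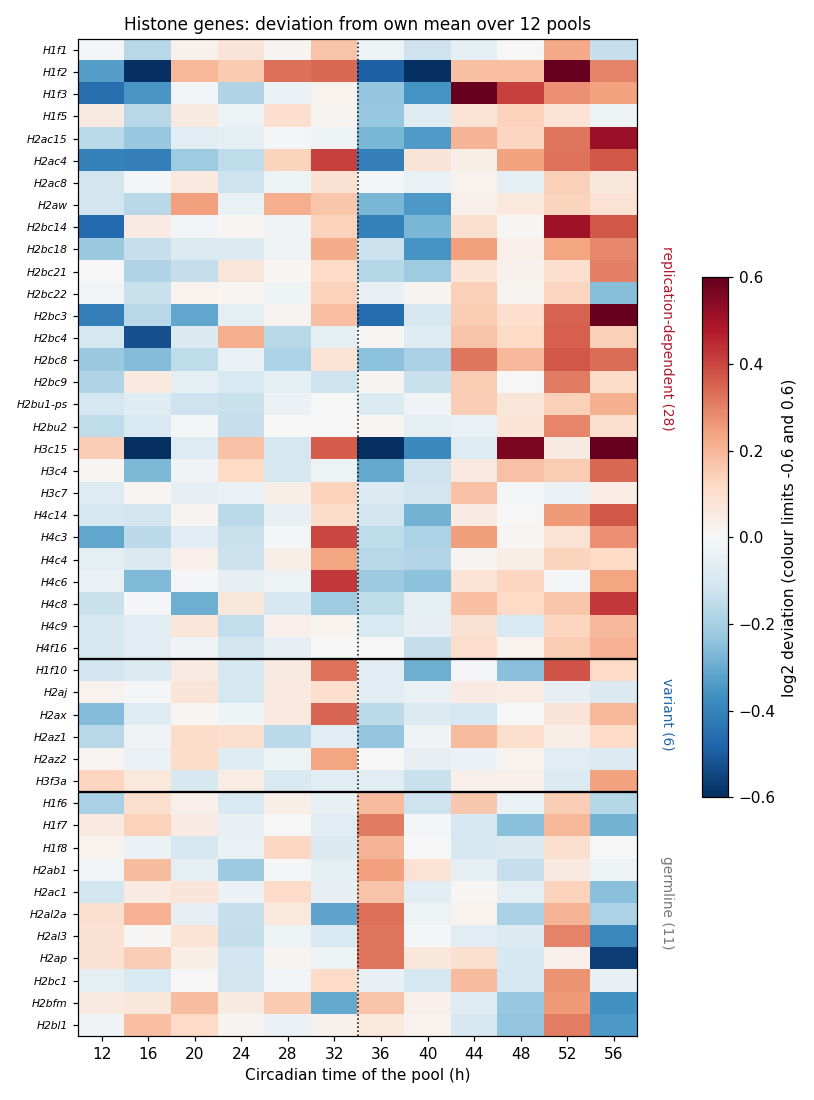
Each row is 1 of the 45 histone genes and each column 1 pool in order of circadian time. Colour gives the log2 deviation from the gene's own mean, with values beyond 0.6 in either direction drawn at the limit. Most replication-dependent rows are blue at CT12, CT16, CT36 and CT40 and red from CT44 to CT56, while the germline rows are red at CT36 and CT52.

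In the 24 h fit 6 of the 27 genes had an unadjusted p under 0.05, against 3.54% of all genes, and 0 of the 45 members passed an adjusted p of 0.05 (limma), against 0.0251%. The median amplitude of the 27 was 0.15, against 0.06 for all genes, and 25 of 27 fitted peaks lay between CT 0 and CT 6, as did those of 5350 of all 19937 genes. The count of 25 was 8 with a period of 22 h, 18 with 26 h, 20 with a linear term of time and 22 with array weights. The count of 6 moved with single pools: it was 2 without CT16, 2 without CT40, 3 without CT20, 10 without CT24, 10 without CT56, 13 without CT44 and 14 without CT28.

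Among the core histone genes H3c15 (older name Hist2h3c2), which encodes histone H3.2, had the widest range over pools, 1.52, beside 1.47 for H1f2. It read 7.09 to 8.0 at night with a median of 7.62, and 7.75 to 8.61 by day with a median of 8.13. The lowest pools were CT36, CT16 and CT40 and the highest CT56, and night and day overlapped. Night minus day was -0.60 ± 0.16 (SE, adjusted p = 0.497, limma), a 1.52-fold higher level by day, and the 24 h amplitude was 0.38 ± 0.13, peaking at CT 3.9 (adjusted p = 0.996, limma). The difference was -0.34 in the first cycle and -0.87 in the second. Because many H3 genes encode the same protein from near-identical messages, signal from other H3 genes on this probe was not tested.

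Among the 4 H2A genes, H2ac4 (Hist1h2ab) read 5.21 at CT12, 5.21 at CT16, 5.40 at CT20, 5.46 at CT24, 5.75 at CT28 and 6.02 at CT32 in the first cycle. In the second it read 5.20 at CT36, 5.69 at CT40, 5.65 at CT44, 5.86 at CT48, 5.94 at CT52 and 5.99 at CT56. It thus read higher in each later pool of the first cycle from CT16 on, and its 3 lowest pools were CT36, CT12 and CT16. Night minus day was -0.44 ± 0.11 (SE, adjusted p = 0.497, limma), with -0.47 in the first cycle and -0.41 in the second. The probe is dim, at the 6th percentile of the mean level. H2ac15 (Hist1h2ak) had a 24 h amplitude of 0.22 ± 0.08, peaking at CT 3.6, and read 9.50 to 10.04 at night and 9.79 to 10.36 by day. H2aw (Hist3h2a) lies on chromosome 11, apart from the large cluster on chromosome 13. Its 24 h amplitude was 0.19 ± 0.06, peaking at CT 2.7. Its 4 pools of phases CT12 and CT16 read 10.46, 10.40, 10.30 and 10.22, below all the others, and over 12 pools it had the highest correlation with H1f2 of all members (Pearson r = 0.87, a description). H2ac8, the dimmest member, differed by -0.03 between night and day.

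H2B genes numbered 10, the most of any replication-dependent family. H2bc21, classed by its symbol alone, is among them. It had an unadjusted p under 0.05 at night and in the 24 h fit (limma). H2bc3 (Hist1h2bb) read 8.45 to 9.06 at night with a median of 8.67, and 8.86 to 9.61 by day with a median of 9.05. Its lowest pools were CT36, CT12 and CT20 and its highest CT56. Night minus day was -0.43 ± 0.12 (SE, adjusted p = 0.497, limma). H2bc14 (Hist1h2bm) had a 24 h amplitude of 0.24 ± 0.09, peaking at CT 2.9, and a range of 0.97, from 9.22 at CT12 to 10.20 at CT52. At the other end H2bc22 differed by 0.00 between night and day, and H2bc9 by -0.05. All 10 had a lower mean at night (median -0.21), 9 of 10 after quantile normalization and after cyclic loess. H2bc4 and H2bc8 carry each other's symbols among their other names in RefSeq, so H2B probes may not be independent of each other.

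All 7 H4 genes had a lower mean at night, with a median of -0.16 and differences from -0.23 to -0.04, and the direction held for all 7 under quantile normalization and cyclic loess. With array weights, which count pools that fit poorly less, the median was -0.03 and 6 of 7 were lower. H4 genes encode 1 protein from many near-identical copies, so that their probes may not be independent of each other.

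Promoters of H2ac4, H2bc3 and H2aw are printed because they hold the octamer, which 7 of the 23 replication-dependent genes with a RefSeq promoter had. H2ac4 is at chr13:23750938-23751087, H2bc3 at chr13:23746584-23746733 and H2aw at chr11:58954535-58954684, all on the plus strand, with the same window and capitals as above.
H2ac4: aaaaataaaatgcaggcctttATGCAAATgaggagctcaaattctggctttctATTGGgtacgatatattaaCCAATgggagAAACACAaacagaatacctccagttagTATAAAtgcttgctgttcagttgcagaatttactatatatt
H2bc3: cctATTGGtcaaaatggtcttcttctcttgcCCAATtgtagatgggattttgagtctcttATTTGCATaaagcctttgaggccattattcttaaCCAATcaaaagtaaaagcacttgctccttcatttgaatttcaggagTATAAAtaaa
H2aw: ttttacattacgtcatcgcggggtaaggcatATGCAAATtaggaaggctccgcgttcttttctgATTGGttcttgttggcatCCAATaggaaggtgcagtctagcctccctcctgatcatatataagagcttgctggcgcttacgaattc
Searched on both strands over the 250 bases before the start, ATTTGCAT was found in 7 of 23 replication-dependent promoters and 1.6% of all 32851, all 7 being H2A or H2B genes. CCAAT was found in 18 of 23 (33.8% of all), TATAAA in 13 of 23 (12.4%) and AAACACA in 5 of 23 (6.25%), of which 3 were among the 4 linker genes. The 2 clock motifs CACGTG (6.02%) and TTATGTAA (0.819%) were found in 0 of 23. Some of these motifs were found in the other classes too. CCAAT was in 4 of 5 variant and 8 of 11 germline promoters, and AAACACA in 1 of 5 and 3 of 11. TATAAA was in 0 of 5 and 3 of 11, ATTTGCAT in 0 of 5 and 2 of 11, and CACGTG in 1 of 5 and 0 of 11. Matches are letters in a window and no binding was measured. A promoter was found for 39 of the 45 members.

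By pool median, variant genes stood closer to their means than the 27 replication-dependent genes in most pools. The exceptions were CT20 (0.06 against -0.02) and CT32 (0.17 against 0.11). Between night and day 5 of 6 had a lower mean at night in the deposited values and 4 of 6 after quantile normalization, median centring or cyclic loess, with H2az2 turning sign, and the median difference was -0.04. H2ax encodes H2A.X, which is phosphorylated at DNA breaks. It read 8.27 to 8.54 at night (median 8.44) and 8.50 to 8.88 by day (median 8.60), a difference of -0.22 ± 0.07 (SE, adjusted p = 0.497, limma). It was the 1 variant gene with an unadjusted p under 0.05. H1f10 (H1X), a linker variant, read 8.66 to 9.0 at night and 8.71 to 9.33 by day, a difference of -0.17 ± 0.10.

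H2az1 and H2az2 encode the 2 forms of H2A.Z, a variant placed at promoters. H2az1 read 10.96 at CT36 and 11.38 at CT44, its extremes, both in the night, and differed by -0.05 ± 0.08 between night and day. H2az2 stayed between 9.91 and 10.23 and differed by 0.00 ± 0.06. H2aj stayed between 8.04 and 8.26. H3f3a, which encodes H3.3, stayed between 6.47 and 6.85 on the probe that carries its symbol alone. The 6 probes that H3f3a or H3f3b share with a predicted gene read far brighter, at means of 10.74 to 12.16, and all 6 were lower at night (median -0.12).

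The promoter of H1f10 is shown for contrast with the linker genes above, at chr6:87981483-87981632 on the minus strand.
H1f10: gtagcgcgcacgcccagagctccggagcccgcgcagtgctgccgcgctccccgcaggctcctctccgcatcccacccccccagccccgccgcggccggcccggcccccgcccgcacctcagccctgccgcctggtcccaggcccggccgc
None of the 6 motifs was found in this window, whose G and C content was 82.7%, against 54.7% for H1f2.

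The median night minus day of the replication-dependent genes without H1f2 differed from that of the variant genes by -0.17 on the log2 scale, and by -0.07 with array weights. By pool, the class median minus the variant median, again without H1f2, lay between -0.13 and -0.01 in the first cycle. In the second it was -0.09 at CT36 and -0.07 at CT40, and 0.09, 0.04, 0.16 and 0.12 from CT44 to CT56. The class median was thus below the variant median in all 6 pools of the first cycle and above it in the last 4 of the second. With 6 variant genes against 27, and no test across genes, these are descriptions.

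Germline genes, made in testis or oocyte, went the other way. Of the 11, 9 had a higher mean at night, with a median difference of 0.13, and 8 of 11 after quantile normalization or cyclic loess. H2ap, on the X chromosome, read 6.78 to 7.06 at night and 6.18 to 6.77 by day. It was the 1 member whose night and day pools did not overlap, as for 0.0552% of all genes with night above day. The opposite order, all night pools below all day pools, held for 0 of the 45, against 0.176%. The difference was 0.25 ± 0.09 (SE, adjusted p = 0.497, limma). The class was highest at CT36 (median 0.20) and CT52 (0.20), the pools in which dim genes in general were high, and 6 of the 11 were dim. Of all dim genes 74.8% were higher at night, and the part of level in the class was not tested. The linker genes among them, H1f6, H1f7 and H1f8, differed by 0.05 ± 0.08, 0.15 ± 0.09 and -0.01 ± 0.06, the sign of H1f6 turning after quantile normalization and cyclic loess.

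**Figure D3:**
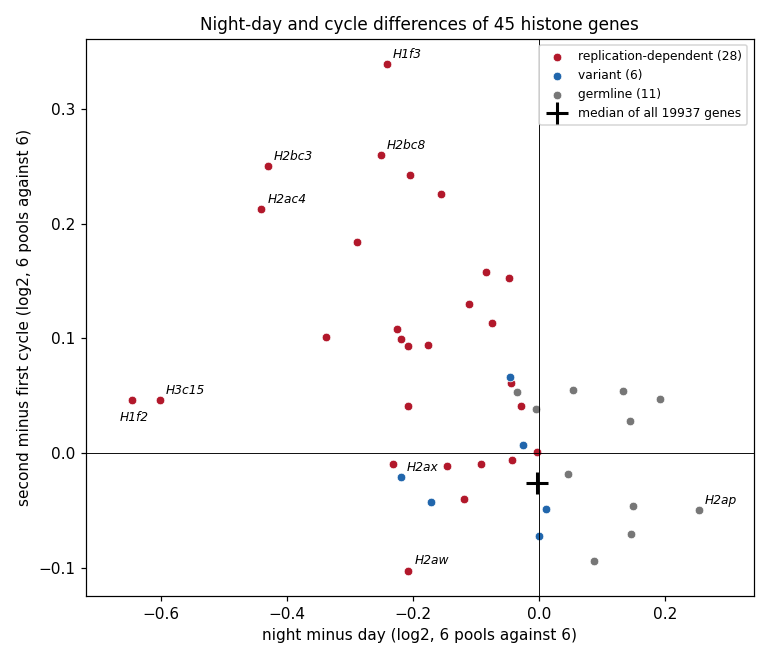
Each point is 1 of the 45 histone genes, with night minus day on the horizontal axis and second minus first cycle on the vertical axis, both in log2 over 6 pools against 6. All 28 replication-dependent points lie left of 0, and 22 of them above 0. The cross marks the median of all genes, 0.00 and -0.03.

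The comparison of the second with the first cycle asks whether the days differed. Of the 27 replication-dependent genes without H1f2, 21 had a higher mean in the second cycle, against 38.3% of all genes, with a median of 0.10 against -0.03. The count was 24 of 27 after quantile normalization and 25 after cyclic loess. At an unadjusted p under 0.05, 8 were higher, against 4.22% of all genes, and 0 lower, against 8.94%. Of the 45 members 0 passed an adjusted p of 0.05 (limma), the same as the 0.0% of all genes. In 2 of the 27, H2bu1-ps and H4c9, all 6 pools of the second cycle were above those taken 24 h earlier, against 1.58% of all genes.

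All 10 H2B genes were higher in the second cycle, with a median of 0.14, and all 10 were so after quantile normalization, median centring and cyclic loess. Their probes may not be independent of each other, and the 10 include the pseudogene H2bu1-ps. H2bc8 (Hist1h2bg) read 8.37 to 8.72 in the first cycle (median 8.46) and 8.39 to 9.0 in the second (median 8.89), a difference of 0.26 ± 0.08 (SE, adjusted p = 0.304, limma). H2bc3 differed by 0.25 ± 0.08 and H1f3 by 0.34 ± 0.09, with the same adjusted p. In all 3 the 2 lowest pools of the second cycle, CT36 and CT40, overlapped the first cycle, and the pools from CT44 to CT56 were each above the pool taken 24 h earlier. Of the linker genes 2 of 4 were higher, of the H2A genes 3 of 4, of the H3 genes 2 of 3 and of the H4 genes 5 of 7. The variant genes had 2 of 6 higher and a median of -0.03, whose sign turned after quantile normalization (0.00) and cyclic loess (0.01). Without H1f2, the class median exceeded the variant median by 0.13. The difference in night minus day between cycles rests on 3 pools a cell, and 0 of the 45 members had an unadjusted p under 0.05 in its test (limma), which does not show that the cycles were alike.

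Probes with several symbols hold most of the histone cluster and were kept apart. There were 34, of which 27 list histone symbols only. Without the 5 H2al probes of the germline, 21 of 22 such probes were lower at night (median -0.17) and 19 of 22 higher in the second cycle (median 0.09). Many list the same symbols, as all 9 H3 probes do, and these include members counted above. The 22 are therefore not independent of each other or of the members. All 7 H2B probes were lower at night and higher in the second cycle. A single H2B probe, listing 15 symbols, had a range of 3.75, from 6.33 at CT36 to 10.08 at CT56, larger than that of any member.

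The genes that make and handle histone messages varied over a narrower range, with pool medians between -0.12 and 0.12. The list of 20 measured genes for 3' end processing and turnover of histone messages had 18 lower at night with a median of -0.05, and 18 lower in the second cycle with a median of -0.07. Of the 20, 16 lay above the median level of all genes. Of bright genes 80.0% were lower at night and 68.0% in the second cycle, against 51.5% and 61.7% of all genes. The part of level in these counts was not tested. At an unadjusted p under 0.05, 0 of the 20 had a 24 h rhythm. Slbp itself stayed between 8.40 and 8.74, and Npat, the activator of histone gene clusters, between 8.46 and 9.18. Hinfp, an activator of H4 genes, had the smallest p of the list at night, -0.16 ± 0.07 (adjusted p = 0.497, limma). Of 31 histone chaperone genes 19 were lower at night with a median of -0.01. Nasp, a chaperone of H1 and of H3 with H4, had the smallest p in the 24 h fit, peaking at CT 20.4 with 0.16 ± 0.05 (adjusted p = 0.996, limma).

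Genes of DNA replication and mitosis differed little over the day. Of 45 S phase genes 22 were lower at night, with a median of 0.00. In the second cycle 32 of the 45 were lower (61.7% of all genes), with a median of -0.02. Their median deviation by pool stayed between -0.06 and 0.06, against -0.16 to 0.24 for the 27 histone genes. Pcna, the sliding clamp of replication, stayed between 10.15 and 10.48. Of 25 G2 and mitosis genes 11 were lower at night, with a median of 0.00, and their pool medians lay between -0.11 and 0.10. At an unadjusted p under 0.05 the 24 h fit held 1 of the 45 (Rfc5) and 1 of the 25 (Aurka). None of the 25 and 11 of the 45 lay above the median level of all genes, so small changes in few cells would be hard to see.

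**Figure D4:**
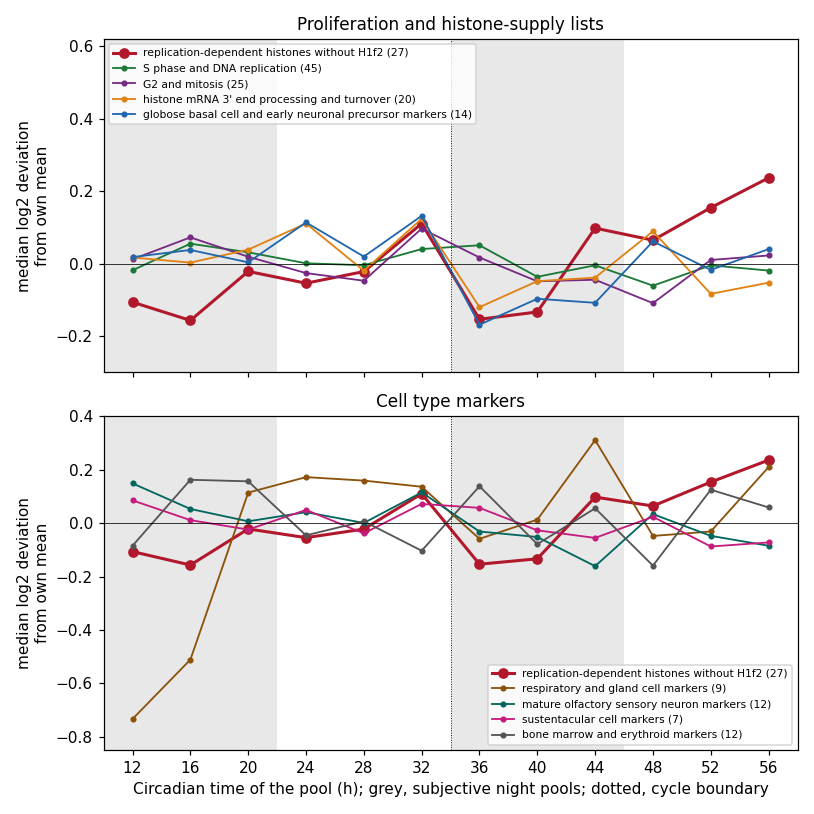
Both panels plot the median log2 deviation from the genes' own means against circadian time, with the 27 replication-dependent genes without H1f2 in red. The upper panel sets them beside the S phase, mitosis, message processing and precursor lists, whose medians lie between -0.17 and 0.13. The lower panel sets them beside cell type markers, of which the respiratory and gland markers stand at -0.73 at CT12 and -0.51 at CT16.

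Markers of other cells moved with some of the low pools. Of 9 respiratory and gland markers 8 had a lower mean in phases CT12 and CT16 (50.6% of all genes, 75.4% of bright genes), with a median of -0.55. Their low was at CT12 (-0.73) and CT16 (-0.51) and not at CT36 (-0.06) or CT40 (0.01), where the 27 histone genes stood at -0.15 and -0.13. The sum of the log2 values of the 9 ran from 88.3 to 105.1 in night pools and from 92.7 to 102.0 in day pools. A few genes carry most of this spread. Over all pools Bpifb9b ran from 5.93 to 13.12, Obp1a from 8.62 to 13.49 and Lcn11 from 8.43 to 13.74. The rest ranged less, the widest being Reg3g (11.48 to 12.94) and the narrowest Foxj1 (8.80 to 9.10). Of 14 precursor markers 11 were lower at night, with a median of -0.09, and 4 had an unadjusted p under 0.05, against 5.69% of all genes. Of the 14, 13 lay above the median level of all genes. Genes above that level had a median night minus day of -0.05. Bright genes are a narrower set, and 80.0% of them were lower at night. The sum of the log2 values of the 14 was 127.4 to 129.9 at night and 129.2 to 131.1 by day. Sox2 differed by -0.23 ± 0.08 (adjusted p = 0.497, limma). Of 12 marrow and erythroid markers 3 were lower at night (summed log2 values 85.6 to 90.9 at night, 86.2 to 88.8 by day). Of 7 lymphocyte markers 1 was (45.7 to 47.1 and 44.7 to 46.9). Of all genes 51.5% were lower at night and of dim genes 25.2%. Both lists also hold genes that are not dim, such as Ltf and Cd3e. No list had a defining marker at 0, since array values have a floor above 0. The part of these cells in the histone values was not tested.

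The genes whose course over the 12 pools was most like that of H1f2 were not histones. They were Rnf181 (Pearson r = 0.94), Mybl1 (0.93), Jund (0.88), Nme6 (0.87) and Tead1 (0.87). Rnf181 read 10.64 to 10.76 in the 4 pools of phases CT12 and CT16 and 10.82 to 10.91 in the other 8. Mybl1 read 8.53 to 9.25 and 9.27 to 9.67. The 27 other replication-dependent genes had a median r of 0.68 with H1f2, from 0.30 to 0.87, the variant genes 0.31, the germline genes -0.18 and all genes 0.01. All genes share the same 12 pools, and these correlations carry no p.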

How the data were processed

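Deposited log2 intensities of 12 Affymetrix arrays, 1 per pool, were used as they stand. Per the labels' protocols, Trizol-extracted RNA was amplified with the Ambion WT Expression kit, whose second cycle is random-primed. The submitters' processing notes name affy as a tool, with no version. The normalization is not given in the sources used here, and the log2 scale was read from the deposited values, which span 3.48 to 14.47. Of 34760 probes 21640 had 1 symbol in a platform annotation. The probe with the highest mean stood for a gene, which left 19937 genes. The annotation carried current symbols, since 21553 probes matched RefSeq (GRCm38.p6) by Entrez ID and 0 symbols changed. Classes followed patterns in the current gene symbol, with RefSeq's older symbol used for H2aw, H2bu1-ps, H2bu2 and H4f16. H2bu1-ps, a pseudogene in RefSeq, is counted with the replication-dependent genes.

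Limma 3.58.1 in R 4.3.3 fitted a 24 h cosine and sine (moderated F test), night against day, and second against first cycle with phase as a factor, with Benjamini-Hochberg adjustment over all genes and a threshold of 0.05. The fits were tested on simulated data. The array number limits precision, and p-values measure the spread between pools. Members and lists were chosen with earlier results of these data known. Named were H1f2, all linker and variant genes, up to 3 members per direction with the smallest p in each contrast (up to 5 by amplitude in the 24 h fit), the 5 largest ranges, list members with the smallest p in a contrast (only those the text needs) and the 5 genes most like H1f2. Others were named after their values were seen. Alternatives were quantile normalization, median centring, filters on dim genes, all probes, a trended robust prior, array weights, shared probes, other periods and covariates, and omission of single pools. Cyclic loess and omission of both CT32 and CT56 were added after seeing the data. Matplotlib 3.10.9 drew the figures.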

Additional observations from a re-analysis of the deposited data

Results flagged for a closer look

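The 10 replication-dependent H2B genes had 1 night pool far from the other 5: their median deviation was 0.15 at CT44, and the next highest night pool stood at -0.09. The gap took 0.746 of the range of the 6 night pools. This was the 1 such case among 36 groups of 6 pools (9 series of values, each in night, day, first-cycle and second-cycle pools), where about 1.8 would arise by chance. In the same pool the respiratory and gland markers stood at 0.31, and their part was not tested.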

How the results depend on the processing

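No member passed an adjusted p of 0.05 in any contrast under any of the 28 alternatives. The 12 named results kept their side of the threshold in all 281 alternative fits, and their night and cycle differences kept their direction, with a lowest adjusted p of 0.0558 (limma). The count of 6 replication-dependent genes in the 24 h fit was 3 after quantile normalization and 3 after cyclic loess, 1 with a period of 22 h, 1 with a linear term of time, and 10 without CT32 and CT56. Leaving out each pool gave 2 to 14. The count of 12 lower at night was 8 to 17 with a pool left out, and the count of 8 higher in the second cycle was 6 to 12. Adding 22 shared probes to the 27 genes raised these counts only by the probes' own calls: 5 made the 6 an 11 in the 24 h fit, 8 made the 12 a 20 at night and 3 joined the 8. Many of these probes list the same symbols, members among them, and are not independent readings. The gap of -0.171 at night between the medians of the 28 replication-dependent genes, H1f2 included, and the variant genes was -0.0777 with array weights. The cause was not tested. Under the 3 other scalings 11 members turned sign in night or cycle, with differences of up to 0.054 in size in the deposited values. Each time point is 1 pool, and dim probes leave little signal over background, which was not measured.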
